A study of Mus musculus with 72 samples.

Results

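Expression of 10 genes of the NRF2 and glutathione defence was described in mouse liver: Nfe2l2, which encodes the transcription factor NRF2, and Gclc, Gclm, Gss, Gsr, Gpx1, Gpx6, Nqo1, Txnrd1 and Srxn1. They were taken by symbol from a table of 55573 genes, in which each of the 10 had 1 row. In GRCm38 the genes lie, on the plus strand, Gclc at chr9:77754535-77794485, Gclm at chr3:122245557-122270732, Gsr at chr8:33652523-33698163, Gpx1 at chr9:108338903-108340343, Gpx6 at chr13:21312125-21319624, Txnrd1 at chr10:82833951-82897712, Srxn1 at chr2:152105516-152111376, and on the minus strand Nfe2l2 at chr2:75675513-75704641, Gss at chr2:155563181-155592810, Nqo1 at chr8:107388225-107403206, all of them protein-coding. Liver RNA came from 72 male C57BL/6 mice in 4 groups of 18, with 3 mice at each of 6 zeitgeber times (ZT, hours from lights on: ZT2, ZT6, ZT10, ZT14, ZT18 and ZT22). All mice carried loxP-flanked Bmal1 (Bmal1 fl/fl). WT mice carried no Cre. LKO mice carried Albumin-Cre in addition, driven by the Albumin promoter, for a deletion of the clock activator gene Bmal1 described as specific to the liver. Which cells of the liver lost BMAL1 was not tested. Each genotype was kept either specific pathogen-free (SPF), with a microbiota, or germ free (GF), in isolators, on the same light cycle and autoclaved chow. The questions were what the loss of the liver clock does in either microbial state, what the absence of microbes does in either genotype, and whether the first depends on the second.

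NRF2 is held low in unstressed cells by KEAP1, which hands it to a ubiquitin ligase. When electrophiles or peroxides modify KEAP1, NRF2 accumulates, pairs with a small MAF protein and binds antioxidant response elements near its target genes. Those targets make glutathione (Gclc, Gclm), keep it and thioredoxin reduced (Gsr, Txnrd1), repair oxidized peroxiredoxins (Srxn1) and reduce quinones (Nqo1). Glutathione peroxidases, Gpx1 and Gpx6 among them, spend glutathione to remove peroxides.

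The libraries held 17369927 to 22076113 counts (median 19106725.5), and no pair of libraries had identical counts. Levels are given as CPM, counts per 1000000 scaled by TMM factors, and each mouse is 1 library. In 4 libraries clock genes went against the labels. Npas2, which had a median of 24.6 CPM in SPF LKO, was at 0.221 CPM in replicate 2 of ZT14 and at 1.83 in replicate 1 of ZT18 of the libraries labelled so, and Arntl (Bmal1) stood apart from its ZT in the libraries labelled SPF WT ZT14 replicate 3 (2.11 CPM) and GF WT ZT6 replicate 3 (8.24 CPM). All were kept under their labels, and some of the results, not all, are also given without these 4 libraries. Of 8 hepatocyte markers 7 had a row, none of them at 0 in any group. Their summed CPM had medians of 113872 in SPF WT, 65109 in SPF LKO, 141511 in GF WT and 68775 in GF LKO, and of this sum Alb had medians of 83739, 36376, 103907 and 32178 CPM. Of the 7, 1 was called lower and 0 higher with loss of the clock in SPF mice, and 2 lower and 0 higher in GF mice. Without microbes 5 were called higher and 0 lower in WT mice, and 4 higher and 1 lower in LKO mice. Summed Kupffer cell markers ran from 133 to 541 CPM over all groups, with 0 of 8 called higher in any comparison and 4, 3, 0 and 2 called lower in the genotype comparisons of SPF and GF mice and the microbial comparisons of WT and LKO mice. Summed cholangiocyte markers had medians of 53.8 CPM in SPF WT, 70.5 in SPF LKO, 44.8 in GF WT and 91.3 in GF LKO. Of the 5 tested, 1 was called higher with loss of the clock in SPF and 2 in GF mice, and 0 lower in either. Of 8 stellate cell markers, 2 were called higher and 1 lower in SPF mice, and 2 higher and 0 lower in GF mice. Of endothelial markers 2 of 8 were called lower in SPF mice, and 1 lower and 1 higher in GF mice, while of the few lymphocyte markers tested 0 were called. Without microbes 3 of 8 endothelial markers were called lower and 1 higher in either genotype. Of 5 cholangiocyte markers 2 were then called lower in WT and 1 in LKO mice, and 0 higher. Of 8 stellate cell markers 0 were called in WT mice, and 1 higher and 0 lower in LKO mice. Among all genes, 11.6% were called higher and 11.5% lower with loss of the clock in SPF mice, and 15.6% and 15.2% in GF mice. Between GF and SPF livers these shares were 14.2% and 17.7% in WT mice and 18.1% and 18.4% in LKO mice. The part of cell composition in the results below was not tested. In bulk liver, fewer cells of a type and less RNA per cell cannot be told apart.

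The starts of the genes show which of them carry the 2 motifs that bear on this comparison, the antioxidant response element core (TGACNNNGC) bound by NRF2 and the E-box (CACGTG) bound by BMAL1 and CLOCK. RefSeq promoter windows of GRCm38.p6, 250 bases before to 50 after a start, were at hand for 8 of the 10 genes (10 windows), and Gclc and Gsr had none. Both strands were searched, and the motifs do not overlap each other. The antioxidant response element core was found in windows of Nfe2l2, Gclm, Srxn1 and Txnrd1, that is in 4 of the 10 windows, and in 12.4% of all 32851 windows. The E-box was found in 1 of the 10 windows, that of Gpx6, and in 7.15% of all windows. A match of letters is no proof of binding, and a window without a match says only that these letters are not in it. Below are the 250 bases before the start of Gpx6, whose level differed most between groups, of Gclm, which GF LKO livers held less of than GF WT livers, and of Nfe2l2 itself, each 5′ to 3′ on the strand of the gene, with the motif in capitals.
Gpx6, chr13:21311953-21312202, plus strand, E-box starting 121 bases before the start: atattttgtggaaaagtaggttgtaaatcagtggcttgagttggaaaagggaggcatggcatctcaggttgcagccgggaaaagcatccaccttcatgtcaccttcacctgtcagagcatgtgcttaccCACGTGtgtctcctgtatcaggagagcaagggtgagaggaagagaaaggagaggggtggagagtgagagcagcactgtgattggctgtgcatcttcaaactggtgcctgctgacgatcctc
Gclm, chr3:122245307-122245556, plus strand, antioxidant response element core on the other strand starting 134 bases before the start: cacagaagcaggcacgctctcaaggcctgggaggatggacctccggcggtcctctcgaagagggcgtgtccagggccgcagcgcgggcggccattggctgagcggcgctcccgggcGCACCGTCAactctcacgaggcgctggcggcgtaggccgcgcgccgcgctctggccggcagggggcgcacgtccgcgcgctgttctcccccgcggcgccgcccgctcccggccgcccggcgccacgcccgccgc
Nfe2l2, chr2:75704664-75704913, minus strand, antioxidant response element core starting 240 bases before the start: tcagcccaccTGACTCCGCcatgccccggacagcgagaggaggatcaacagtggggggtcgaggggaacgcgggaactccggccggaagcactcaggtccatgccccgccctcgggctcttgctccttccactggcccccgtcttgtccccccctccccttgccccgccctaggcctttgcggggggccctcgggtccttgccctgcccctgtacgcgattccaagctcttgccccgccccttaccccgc
The RefSeq start of Gpx6 lies inside the gene as annotated in GENCODE, which runs from 21312125 to 21319624 on chromosome 13 of GRCm38. The matches of Txnrd1 (92 bases before 1 of its 3 starts) and Srxn1 (base 29 of the transcribed part) are not printed.

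The genes differed widely in level per length. By RPKM (CPM per 1000 bases of exon), Gpx1 was highest, with a median of 1222 over the 72 libraries. Gclc followed with 73.8, Gclm with 41.02, Gsr with 30.1, Txnrd1 with 19.4, Srxn1 with 16.6, Nfe2l2 with 15.8, Gss with 9.08, Nqo1 with 4.84 and Gpx6 with 0.804. The ranges over libraries of neighbours in this order overlapped, other than those of Gpx1 and Gclc. Gss and Gclm share exon bases with other genes (Acss2, Gssos1 and Gssos2 on the other strand for Gss, Gm17494 on the other strand and Gm6061 on the same strand for Gclm), and since the counting did not use the strand and left out shared reads, their values are uncertain to that extent.

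**Figure D1:**
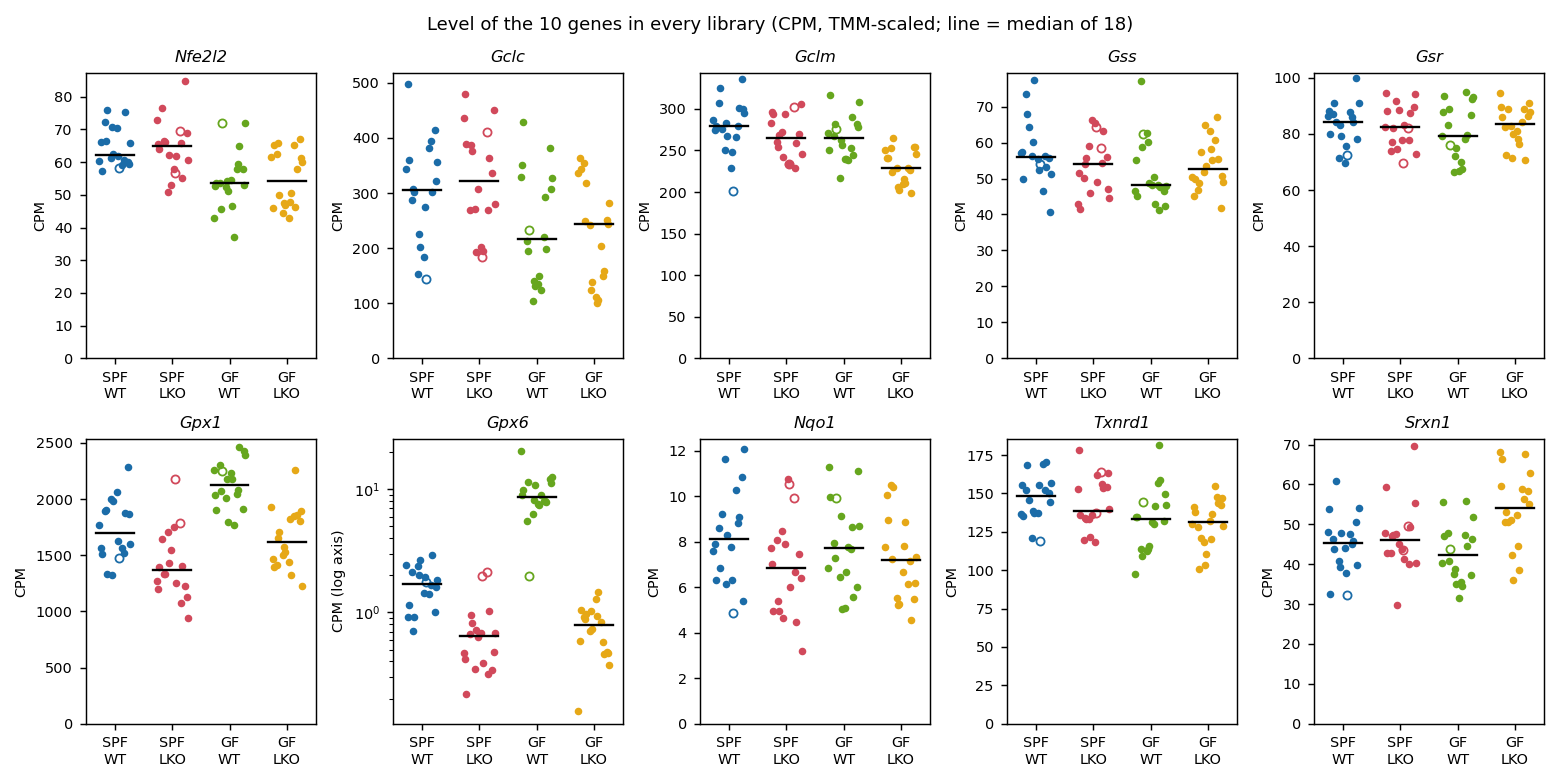
Level of each of the 10 genes in CPM on the y axis (from 0, but on a log axis for Gpx6) in the 18 libraries of each group on the x axis, from ZT2 on the left to ZT22 on the right within a group. Black lines are medians and open circles the 4 libraries that went against their labels. The GF WT libraries of Gpx6 sit at 1.96 to 20.2 CPM, and those of GF LKO at 0.159 to 1.47 CPM.

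With loss of the liver clock most of the 10 genes were not called, and both glutathione peroxidases were called lower in either microbial state. In SPF mice, Gpx1 and Gpx6 were lower in LKO than in WT livers, so 2 of 10 genes were called lower, beside 11.5% of the 13159 genes tested, and 0 of 10 higher, beside 11.6%. In GF mice, Gpx1, Gpx6 and Gclm were lower and Srxn1 was higher in LKO, so 3 of 10 were called lower, beside 15.2% of 12662 genes, and 1 of 10 higher, beside 15.6%. The median log2 fold change of the 10 genes was -0.05 in SPF and -0.04 in GF mice, beside -0.0054 and 0.0082 over all genes. A gene was called where edgeR's quasi-likelihood p, adjusted by Benjamini-Hochberg over all genes tested, was under 0.05.

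Between GF and SPF livers, Nfe2l2 and Txnrd1 were called lower in both genotypes. In WT mice, Gpx1 and Gpx6 were higher and Nfe2l2 and Txnrd1 lower in GF than in SPF livers, so 2 of 10 were called higher, beside 14.2% of 12776 genes, and 2 of 10 lower, beside 17.7%. In LKO mice, Nfe2l2, Gclc, Gclm and Txnrd1 were lower and Srxn1 was higher in GF livers, so 4 of 10 were called lower, beside 18.4% of 13010 genes, and 1 of 10 higher, beside 18.1%. Median log2 fold changes of the 10 genes were -0.10 in WT and -0.0022 in LKO mice, beside -0.02 and -0.017 over all genes. Tested on all 72 libraries, the genotype effect differed between GF and SPF mice for 1 of the 10, Gpx6, which was among 0.319% of 13484 genes called lower, and 0 of 10 were called higher, beside 0.119%. The 4 comparisons share groups in pairs, so their calls are not independent of each other. The 10 genes were chosen with earlier results of these data known, so their counts beside the shares of all genes are descriptions.

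**Figure D2:**
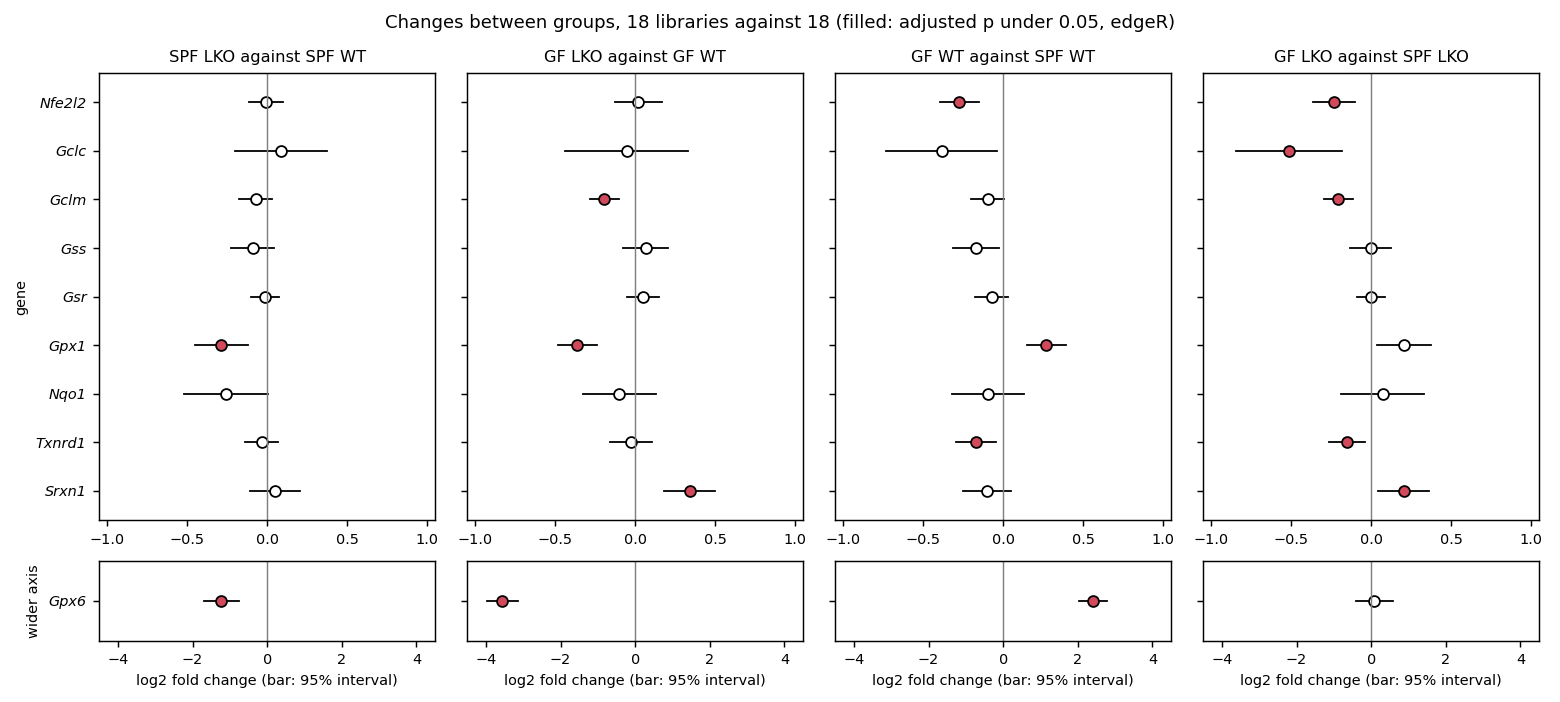
Log2 fold change of each gene in the 4 comparisons of groups, with bars for the 95% interval and filled circles for an adjusted p under 0.05. Gpx6 has a row of its own with a wider axis, where it reaches -3.57 in GF mice.

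Gpx6 had the widest range of the 10. In the mouse it encodes a glutathione peroxidase known from the olfactory epithelium. It had 0.707 to 2.93 CPM (median 1.71) in SPF WT and 0.216 to 2.14 (median 0.65) in SPF LKO. The range was 1.96 to 20.2 CPM (median 8.60) in GF WT and 0.159 to 1.47 (median 0.788) in GF LKO. Every GF LKO library was thus below every GF WT library, and 17 of the 18 GF WT libraries were above every SPF WT library, while both LKO groups overlapped throughout. The counts behind these levels were 3 to 54 per library in SPF WT, SPF LKO and GF LKO and 34 to 313 in GF WT, so single libraries of the first 3 groups carry a large counting error.

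Gpx6 fell by 1.23 ± 0.235 (SE) on the log2 scale with loss of the clock in SPF mice (adjusted p = 0.000134, edgeR), which is 2.34-fold. In GF mice it fell by 3.57 ± 0.21 (SE; adjusted p = 8.2e-17, edgeR), which is 11.8-fold. The difference between these effects was -2.34 ± 0.32 (SE; adjusted p = 1.29e-06, edgeR). Without microbes it was 5.32-fold higher in WT mice (log2 2.41 ± 0.19, SE; adjusted p = 6.66e-11, edgeR), and in LKO mice the log2 change was 0.08 ± 0.25 (SE; adjusted p = 0.824, edgeR), with a 95% interval of -0.41 to 0.57. The mean was lower in LKO at 6 of 6 ZT in either microbial state and higher in GF WT than in SPF WT at 6 of 6 ZT.

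Of the 4 libraries that went against their labels, 3 stood at the edge of their group in Gpx6. Among those labelled SPF LKO, replicate 2 of ZT14 had 1.98 CPM and replicate 1 of ZT18 had 2.14, the 2 highest of SPF LKO, whose other 16 libraries ended at 1.04. The library labelled GF WT ZT6 replicate 3 had 1.96 CPM, where the other 17 GF WT libraries began at 5.51. Without the 4 libraries, Gpx6 in SPF mice fell by 1.57 on the log2 scale (adjusted p = 1.29e-07, edgeR), the difference between the genotype effects was -2.07 (adjusted p = 9.34e-07, edgeR), and the change between GF LKO and SPF LKO was 0.42 (adjusted p = 0.118, edgeR). In GF mice, leaving out replicate 3 of GF WT at ZT6, it fell by 3.63 (adjusted p = 8.23e-19, edgeR).

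**Figure D3:**
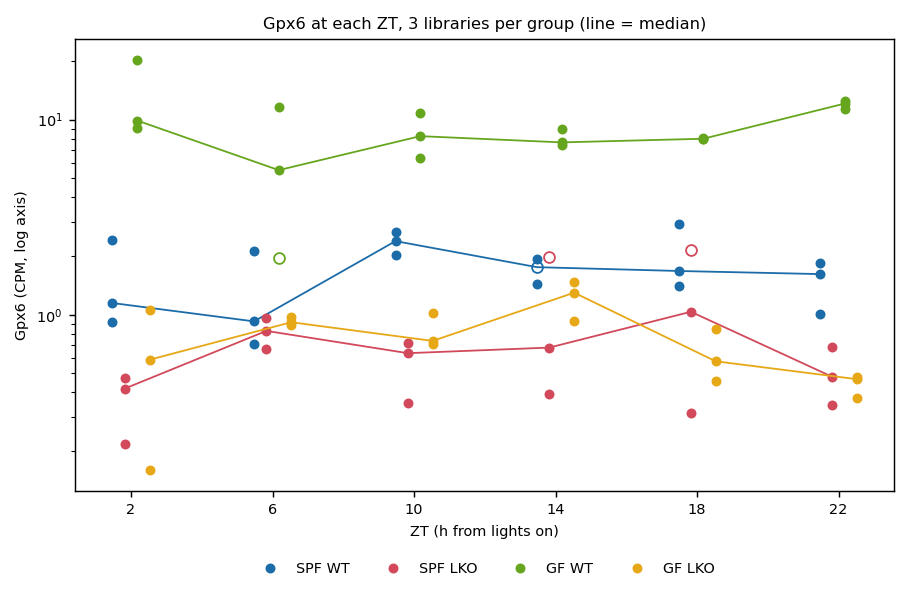
Gpx6 in CPM on a log axis against ZT, with 3 libraries per group and ZT, lines through the medians and open circles for the 4 libraries that went against their labels. GF WT lies above the other groups at every ZT but for the open circle at ZT6, at 1.96 CPM.

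Gpx1, the main cytosolic glutathione peroxidase, moved in the same directions over a far smaller range. It had 1326 to 2287 CPM (median 1699) in SPF WT and 943 to 2176 (median 1366) in SPF LKO. In GF WT it had 1772 to 2463 CPM (median 2129), and in GF LKO 1229 to 2262 (median 1617). GF WT was highest and SPF LKO lowest, and all 4 groups overlapped. With loss of the clock Gpx1 fell by 0.29 ± 0.0856 (SE) on the log2 scale in SPF mice (adjusted p = 0.0124, edgeR) and by 0.36 ± 0.0625 in GF mice (adjusted p = 1.48e-05, edgeR), and the difference between the effects, -0.08 ± 0.11, was not called (adjusted p = 0.981, edgeR). Without microbes it rose by 0.27 ± 0.0608 in WT mice (adjusted p = 0.000851, edgeR). In LKO mice the change was 0.21 ± 0.0869 (adjusted p = 0.0597, edgeR), and without the 4 libraries it was 0.28 (adjusted p = 0.00622, edgeR). With ZT as a covariate and all libraries kept, this change in LKO mice was 0.216 (adjusted p = 0.0373, edgeR). Without the 4 libraries the log2 change with loss of the clock in SPF mice was -0.37 (adjusted p = 0.000403, edgeR). The difference between the genotype effects was then 0.0066 (adjusted p = 0.998, edgeR). With all libraries kept, the SPF change was not called without replicate 1 (-0.276), replicate 3 (-0.274), ZT2 (-0.273) or ZT22 (-0.189), with adjusted p from 0.0522 to 0.121 (edgeR). The change between GF WT and SPF WT was not called without replicate 2 (0.219, adjusted p = 0.0629, edgeR).

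Nfe2l2 itself was called lower in both microbial comparisons and was called in neither genotype comparison. It had 57.1 to 76.03 CPM (median 62.2) in SPF WT and 50.97 to 84.8 (median 64.9) in SPF LKO. It had 37.02 to 71.8 CPM (median 53.6) in GF WT and 42.9 to 67.03 (median 54.3) in GF LKO. Among the GF WT libraries 12 were below all SPF WT libraries, and the means were lower in GF than in SPF mice at 6 of 6 ZT in either genotype. Nfe2l2 fell by 0.28 ± 0.0625 (SE) on the log2 scale in WT mice (adjusted p = 0.000949, edgeR) and by 0.23 ± 0.0674 in LKO mice (adjusted p = 0.00634, edgeR). Between genotypes the change was -0.01 in SPF mice, with a 95% interval of -0.12 to 0.10, and 0.02 in GF mice, with an interval of -0.13 to 0.17. Without replicate 2 the microbial changes were -0.247 (adjusted p = 0.0551, edgeR) and -0.205 (adjusted p = 0.1, edgeR) and were not called. This is the level of the transcript, and NRF2 is known to be controlled mostly as a protein.

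The subunits of glutamate-cysteine ligase, which makes the first and rate-limiting step of glutathione synthesis, were both lower in GF LKO than in SPF LKO. Gclc, the catalytic subunit, had 144 to 498 CPM (median 305) in SPF WT, 184 to 481 (median 323) in SPF LKO, 104 to 428 (median 217) in GF WT and 101 to 364 (median 243) in GF LKO. Much of this spread was between times of day, described below. Gclc fell by 0.51 ± 0.17 (SE) on the log2 scale without microbes in LKO mice (adjusted p = 0.0169, edgeR), while in WT mice the change was -0.39 ± 0.18 (adjusted p = 0.0897, edgeR). The change in LKO mice was not called without replicate 2 (-0.44, adjusted p = 0.102, edgeR), replicate 3 (-0.512, adjusted p = 0.0766, edgeR) or ZT18 (-0.43, adjusted p = 0.0926, edgeR). The GF means were lower at 6 of 6 ZT in either genotype, and with ZT as a covariate Gclc was called in WT mice as well (log2 -0.445, adjusted p = 6.66e-05, edgeR).

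Gclm, the modifier subunit, had 202 to 336 CPM (median 279) in SPF WT and 228 to 305 (median 265) in SPF LKO. It had 217 to 317 CPM (median 265) in GF WT and 199 to 264 (median 229) in GF LKO, where all 18 libraries were below the medians of GF WT and of SPF LKO. Gclm in GF LKO was lower than in GF WT by a log2 change of -0.19 ± 0.0465 (SE; adjusted p = 0.00129, edgeR) and lower than in SPF LKO by -0.21 ± 0.0457 (adjusted p = 0.000584, edgeR). The GF effect of genotype minus the SPF effect, -0.13 ± 0.069, was not called (adjusted p = 0.835, edgeR). Gss, glutathione synthetase, which adds glycine in the second step, had 40.7 to 77.4 CPM over all libraries and group medians of 48.2 to 56.03, and was called in 0 of the 4 comparisons. With ZT as a covariate Gss was called lower in GF WT than in SPF WT (log2 -0.175, adjusted p = 0.00387, edgeR), and its mean there was lower at 6 of 6 ZT. It stayed uncalled in the other comparisons.

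Among the genes that recycle thiols, Srxn1 and Txnrd1 were called and Gsr was not. Srxn1, sulfiredoxin, had 32.2 to 60.8 CPM (median 45.4) in SPF WT, 29.7 to 69.5 (median 46.1) in SPF LKO, 31.6 to 55.7 (median 42.2) in GF WT and 36.02 to 68.2 (median 54.1) in GF LKO. Of the GF LKO libraries 8 were above every GF WT library, and at 5 of 6 ZT the 3 libraries of GF LKO were all above the 3 of GF WT. Srxn1 rose by 0.34 ± 0.0817 (SE) on the log2 scale with loss of the clock in GF mice (adjusted p = 0.00118, edgeR), beside 0.05 in SPF mice (adjusted p = 0.7, edgeR), and the difference between these effects, 0.28 ± 0.11, was not called (adjusted p = 0.501, edgeR). Without replicate 1 its change in GF mice was 0.268 (adjusted p = 0.0675, edgeR). Its rise of 0.20 ± 0.0818 without microbes in LKO mice (adjusted p = 0.049, edgeR) lay at the threshold. This rise was not called under 13 alternatives, among them leaving out the 4 libraries (adjusted p = 0.064, edgeR). With ZT as a covariate it was called, at 0.193 (adjusted p = 0.0158, edgeR).

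Txnrd1, cytosolic thioredoxin reductase, had group medians of 148 CPM in SPF WT, 139 in SPF LKO, 133 in GF WT and 131 in GF LKO, and its libraries overlapped widely, from 97.4 to 182 CPM. It fell by 0.17 ± 0.0628 (SE) on the log2 scale without microbes in WT mice (adjusted p = 0.0357, edgeR) and by 0.15 ± 0.0566 in LKO mice (adjusted p = 0.035, edgeR). Both calls lie near the threshold and were lost under 11 and 10 alternatives, and the second was not called without the 4 libraries (adjusted p = 0.0527, edgeR). With ZT as a covariate the log2 changes of Txnrd1 were -0.177 in WT and -0.153 in LKO mice (adjusted p = 0.00439 and 0.00248, edgeR). Gsr, glutathione reductase, was the steadiest of the 10, with 66.4 to 99.9 CPM over all 72 libraries, group medians of 79.3 to 84.2 and 0 calls in the 4 comparisons.

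Nqo1, a quinone reductase and the gene most used as a readout of NRF2, was called in 0 of the 4 comparisons. It had 4.85 to 12.1 CPM (median 8.10) in SPF WT, 3.19 to 10.8 (median 6.85) in SPF LKO, 5.05 to 11.3 (median 7.73) in GF WT and 4.56 to 10.5 (median 7.19) in GF LKO. The change with loss of the clock in SPF mice was -0.26 ± 0.13 (SE) on the log2 scale (adjusted p = 0.164, edgeR). In SPF LKO the libraries labelled ZT14 replicate 2 and ZT18 replicate 1 had 10.5 and 9.91 CPM of Nqo1, and without the 4 libraries the gene was called, at -0.38 (adjusted p = 0.024, edgeR).

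The choice of scaling moved the smaller changes. Alb took more of the counts in WT than in LKO libraries, and the TMM factors had means of 1.02 in SPF WT, 1.09 in SPF LKO, 0.89 in GF WT and 1.01 in GF LKO. With total counts alone, the median log2 change of all genes shifted to 0.10 and 0.18 in the genotype comparisons of SPF and GF mice and to -0.19 and -0.13 in the microbial comparisons of WT and LKO mice. Relative to these shifts the log2 changes of the 10 genes lay within 0.038 of those above. Taken at face value, with total counts alone Gclm was not called between genotypes in GF mice (log2 -0.02, adjusted p = 0.761, edgeR), and Gpx1 was not called between GF WT and SPF WT (0.10, adjusted p = 0.125, edgeR). Under that scaling 6 of the 10 were called between genotypes in GF mice and 8 between GF WT and SPF WT. The share of all genes called under it is not given here, so these counts have no background beside them.

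The daily course was tested with a 24 h cosine within each group. Gclc and Gss were called in all 4 groups. In SPF WT 2 of 10 genes were called, beside 16.9% of all genes, and in SPF LKO 4 of the 9 tested, beside 24.5%, or 2 without the libraries that went against their labels and 0 or 1 without replicate 1, 2 or 3. In GF WT 6 of 10 were called, beside 29.4%, and in GF LKO 7 of the 9 tested, beside 38.6%. Without replicate 1, 2 or 3 these were 3 in GF WT each time and 3 or 4 in GF LKO. Gpx6 had too few counts for the test in the LKO groups. Apart from Gclc and Gss, the calls were Txnrd1 and Gpx1 in SPF LKO, Txnrd1, Srxn1, Gclm and Gsr in GF WT, and these last 4 with Nfe2l2 in GF LKO. A gene called in 1 group and not in another is not thereby shown to differ between them, so differences of rhythm were tested as such.

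Gclc had the largest rhythm. Its means were highest at ZT2 in every group, 401 ± 84.4 CPM (SD, n = 3) in SPF WT, 435 ± 45.7 in SPF LKO, 369 ± 52.01 in GF WT and 348 ± 14.8 in GF LKO. They were lowest at ZT10 in WT mice, 194 ± 37.03 in SPF and 125 ± 19.2 in GF, and at ZT14 in LKO mice, 194 ± 9.17 in SPF and 106 ± 5.79 in GF. The fitted ratio of peak to trough was 2.17 in SPF WT, 1.95 in SPF LKO, 3.17 in GF WT and 3.09 in GF LKO (adjusted p from 8.21e-08 to 0.00465, edgeR). The fitted peak lay at ZT23.5 in SPF WT, ZT23.8 in GF WT, ZT0.826 in SPF LKO and ZT2.28 in GF LKO. In GF mice the rhythm of Gclc differed between genotypes (adjusted p = 0.00259, edgeR), and at ZT6 it was higher in GF LKO than in GF WT (307 ± 53.5 against 214 ± 18.6 CPM, SD, n = 3), with a log2 change of 0.53 (adjusted p = 0.0399, edgeR). In SPF mice the difference of its rhythm was not called (adjusted p = 0.666, edgeR).

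Gss, the glutathione synthetase gene, had its fitted peak by day in both WT groups and early in the night in both LKO groups. In SPF WT its mean was highest at ZT6, 68.6 ± 4.52 CPM (SD, n = 3), and lowest at ZT22, 49.3 ± 7.77, and in GF WT it was highest at ZT6, 66.1 ± 9.72, and lowest at ZT18, 45.6 ± 3.86. In SPF LKO it was highest at ZT14, 59.6 ± 9.19, and lowest at ZT2, 45.3 ± 5.32, and in GF LKO highest at ZT18, 61.1 ± 5.86, and lowest at ZT22, 47.2 ± 4.71. Fitted peaks were ZT7.76 and ZT7.22 in SPF WT and GF WT and ZT13.5 and ZT14.1 in SPF LKO and GF LKO. The rhythm differed between genotypes in GF mice (adjusted p = 0.0061, edgeR) and was not called different in SPF mice (adjusted p = 0.093, edgeR). Without the libraries that went against their labels the 2 values were 0.00843 and 0.148.

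A difference of rhythm was called for 2 of the 10 genes between GF LKO and GF WT, Gclc and Gss, beside 6.38% of all genes. It was called for 0 of 10 between SPF LKO and SPF WT, beside 1.12%, for 0 of 10 between GF WT and SPF WT, beside 0.047%, and for 0 of 10 between GF LKO and SPF LKO, beside 5.34%. This test was added after the rhythms of the 10 genes had been seen. Gpx6 had an adjusted p of 0.0915 (edgeR) between GF LKO and GF WT and 0.0199 without replicate 3 of GF WT at ZT6, in which case 3 of the 10 were called. Without replicate 1, 2 or 3 between 1 and 3 of the 10 were called there.

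**Figure D4:**
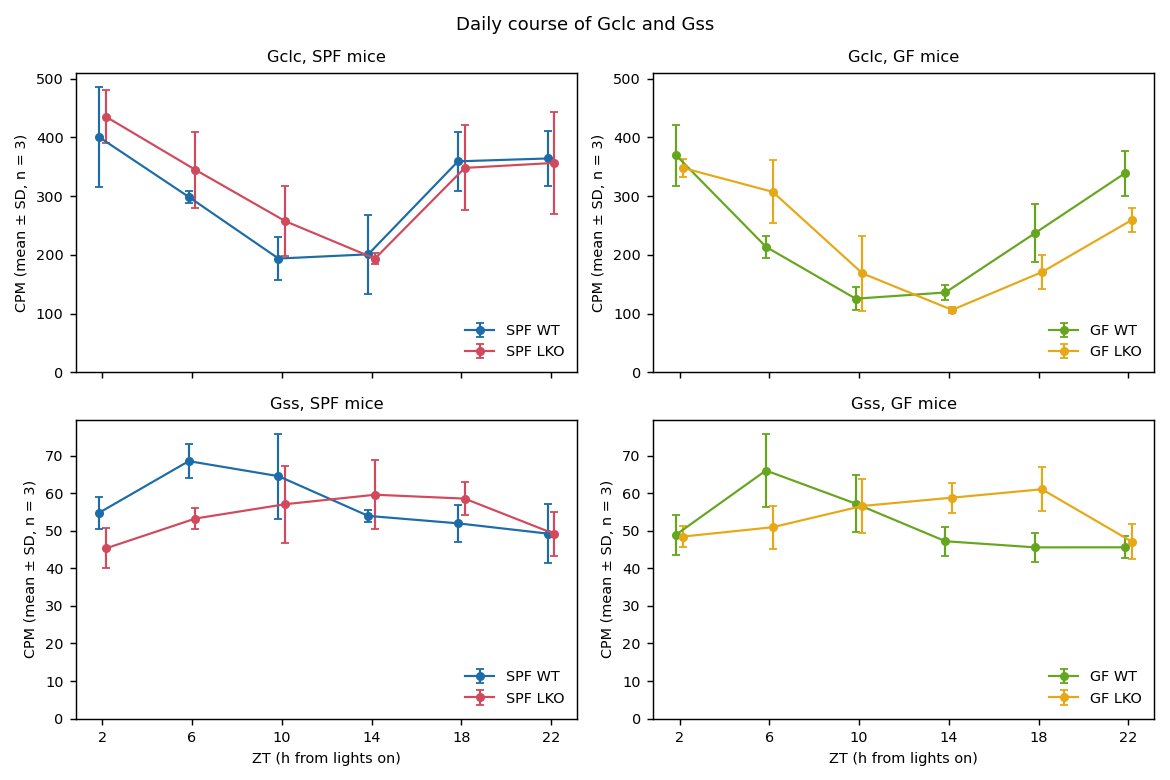
Mean CPM with SD (3 libraries per point) of Gclc and Gss against ZT, for SPF mice on the left and GF mice on the right, WT and LKO in each panel. Gss is highest at ZT6 in both WT groups, at ZT14 in SPF LKO and at ZT18 in GF LKO.

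At single ZT, with 3 mice against 3, Gpx6 made up most of the calls. Between GF LKO and GF WT 8 of 60 pairs of gene and ZT were called, beside 7.99% of all pairs, and these were Gpx6 at all 6 ZT, Gclc at ZT6 and Gss at ZT18. The log2 change of Gpx6 there ran from -4.74 at ZT22 to -2.70 at ZT14. Between GF WT and SPF WT 5 of 60 pairs were called, beside 2.89%, all of them Gpx6, at every ZT but ZT14. At ZT14 only 10 of all 13317 genes tested were called in that comparison, so a missing call there says little about time of day. Between SPF LKO and SPF WT 3 of 60 were called, beside 4.92%. They were Gpx6 at ZT10 and ZT22 and Gpx1 at ZT22 (log2 -0.82, adjusted p = 0.0206, edgeR). The means of Gpx1 at ZT22 were 1919 ± 345 CPM (SD, n = 3) in WT and 1100 ± 145 in LKO. Of all genes, 0 of 13317 were called in this comparison at ZT14 and 2 of 13326 at ZT18. Between GF LKO and SPF LKO 1 of 60 was called, beside 2.71%, Gclc at ZT18 (log2 -1.01, adjusted p = 0.0228, edgeR). Without the libraries that went against their labels, 4 pairs were called between SPF LKO and SPF WT, with Gpx6 at ZT14 added (log2 -1.65, adjusted p = 0.0182, edgeR, beside -0.77 and 0.533 with them), and 9 between GF LKO and GF WT, with Srxn1 at ZT14 added (log2 0.41, adjusted p = 0.0396, edgeR). In the same way 9 pairs were called between GF WT and SPF WT, Gpx6 at all 6 ZT, Gclc at ZT14 and Nfe2l2 and Txnrd1 at ZT6. The 1 call between GF LKO and SPF LKO was then Gclc at ZT14 (log2 -0.91, adjusted p = 0.0151, edgeR). The shares of all pairs called without these libraries are not given here.

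The other genes of the pathway were taken from 5 lists of 72 genes, all with a row, of which 67 or 68 were tested in each comparison. The lists were chosen with earlier results of these data known, so the shares of them called are descriptions and no test of the lists. With loss of the clock 15 of 68 were lower and 4 higher in SPF mice and 25 of 67 lower and 8 higher in GF mice, that is 22.1% and 37.3% lower beside 11.5% and 15.2% of all genes. Without the libraries that went against their labels, 20 of 68 were lower and 6 higher in SPF mice. The shares of all genes called without these libraries or with total counts alone are not given here. Counts of the lists under those settings, here and below, thus have no background beside them. With total counts alone the split between lower and higher turned, to 9 lower and 13 higher in SPF and 14 lower and 23 higher in GF mice. Under that scaling the median log2 change of all genes was itself 0.10 in SPF and 0.18 in GF mice, beside 0.04 and 0.09 for the lists. Without microbes 19 of 67 were higher and 6 lower in WT mice and 21 of 68 higher and 13 lower in LKO mice, beside 14.2% of all genes higher and 17.7% lower in WT and 18.1% and 18.4% in LKO mice. With total counts alone this turned as well, to 4 higher and 21 lower and to 10 higher and 24 lower. The median of all genes was then -0.19 in WT and -0.13 in LKO mice, beside -0.08 and -0.07 for the lists. A genotype effect that differed between the microbial states was called for 1 of the 68, Me1.

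**Figure D5:**
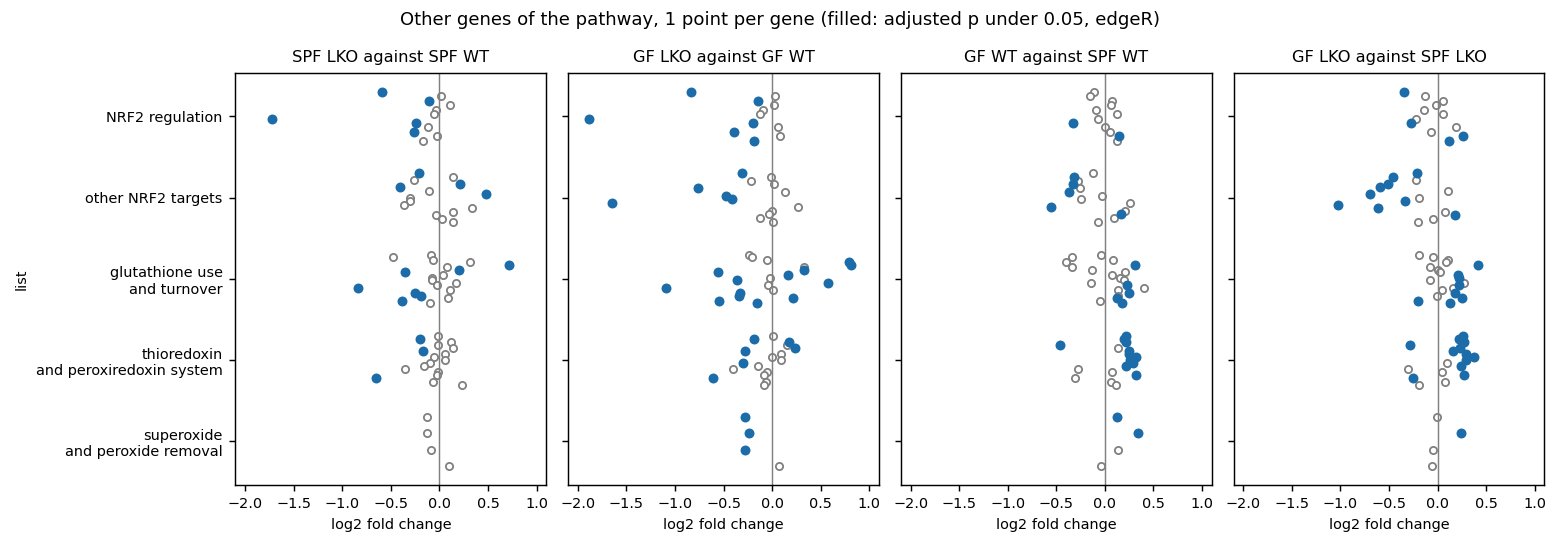
Log2 fold change of each gene of the 5 lists in the 4 comparisons, 1 point per gene and filled where the adjusted p is under 0.05. The NRF2 regulation list has 5 and 6 filled points in the genotype comparisons of SPF and GF mice, all below 0, and the thioredoxin and peroxiredoxin list has 10 filled points above 0 in each microbial comparison.

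In the list of NRF2 regulation (12 genes), 5 were lower and 0 higher with loss of the clock in SPF mice, and 6 were lower and 0 higher in GF mice, beside 11.5% and 15.2% of all genes lower. Bach1, which competes with NRF2 for its DNA sites, fell by 0.59 on the log2 scale in SPF mice (adjusted p = 2.41e-05, edgeR) and by 0.83 in GF mice (adjusted p = 9.83e-09, edgeR). Its medians were 47.4 CPM in SPF WT and 31.7 in SPF LKO, and 43.1 in GF WT and 25.7 in GF LKO. Of the small MAF partners, Maff fell by 1.73 and 1.89 (medians 5.79 to 1.11 CPM in SPF and 4.27 to 1.47 in GF mice), and Mafg fell by 0.24 and 0.20 and was lower in GF than in SPF mice too. Nfe2l1, a relative of Nfe2l2, fell by 0.26 and 0.39. The list had, with total counts alone, 3 lower and 1 higher in SPF and 3 lower and 4 higher in GF mice.

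Among other NRF2 targets (17 genes, 14 or 15 tested), 4 were lower and 1 higher in GF than in SPF WT mice and 8 lower and 1 higher in GF than in SPF LKO mice, beside 17.7% and 18.4% of all genes lower. Scaled by total counts alone, 9 were lower and 0 higher in WT mice and 10 lower and 0 higher in LKO mice. Ephx1, microsomal epoxide hydrolase, fell by 0.37 in WT and 0.70 in LKO mice without microbes, and Aox1, aldehyde oxidase, by 0.33 and 0.51. With loss of the clock in SPF mice the same 2 rose, Ephx1 by 0.48 and Aox1 by 0.22, while in GF mice their changes were 0.14 and 0.02 and were not called. Blvrb, biliverdin reductase B, fell by 0.41 and 0.76 with loss of the clock in SPF and GF mice, and the transporter gene Abcc2 by 0.21 and 0.31. Me1, malic enzyme, which supplies NADPH, had medians of 108 CPM in SPF WT and 84.5 in SPF LKO, and of 142 in GF WT and 40.3 in GF LKO. It fell by 1.65 with loss of the clock in GF mice (adjusted p = 6.35e-10, edgeR), beside -0.36 in SPF mice (adjusted p = 0.108, edgeR), and the difference was called (-1.30, adjusted p = 0.00103, edgeR).

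In the thioredoxin and peroxiredoxin list (17 genes), 10 were higher and 1 lower in GF than in SPF WT mice, and 10 were higher and 2 lower in GF than in SPF LKO mice, beside 14.2% and 18.1% of all genes higher. With total counts alone these were 3 higher and 2 lower and 6 higher and 4 lower. Prdx2, a peroxiredoxin, rose by 0.25 in WT and 0.16 in LKO mice without microbes and fell by 0.17 and 0.28 with loss of the clock in SPF and GF mice. Msrb1, a methionine sulfoxide reductase, followed the same signs with 0.20, 0.22, -0.20 and -0.19, and Msrb2 rose without microbes by 0.22 and 0.28. Prdx6 rose by 0.29 without microbes in WT mice and fell by 0.30 with loss of the clock in GF mice. Txnip, which binds and inhibits thioredoxin, fell by 0.65 and 0.60 with loss of the clock.

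In the list of glutathione use and turnover (22 genes, 20 tested), 5 were lower and 2 higher with loss of the clock in SPF mice and 7 lower and 6 higher in GF mice, beside 11.5% and 15.2% of all genes lower and 11.6% and 15.6% higher. By total counts alone these were 4 lower and 4 higher and 5 lower and 8 higher. Ggct, which breaks down gamma-glutamyl amino acids, rose in all 4 comparisons, by 0.72 and 0.81 with loss of the clock and by 0.31 and 0.42 without microbes. Oplah, the next enzyme on that route, fell by 0.39 and 0.55 with loss of the clock, and Hagh, which releases glutathione in the disposal of methylglyoxal, fell by 0.25 and 0.33. Gpx7, another peroxidase of the family, fell by 0.84 and 1.09, from medians of 1.26 to 0.619 CPM in SPF and 1.67 to 0.805 in GF mice. Dpep1 rose by 0.79 in GF mice at a median of at most 0.764 CPM in any group. Lap3 and Slc25a39 were both higher in GF than in SPF mice in either genotype, by 0.12 to 0.25. Of the 4 genes for removal of superoxide and peroxide, Sod1, Sod2 and Cat fell by 0.24, 0.28 and 0.27 with loss of the clock in GF mice, and 0 were called in SPF mice. Without the libraries that went against their labels, 1 of the 4 genes was called lower in SPF mice. Scaled by total counts alone, 0 of the 4 were lower and 1 higher in GF LKO than in GF WT. Without microbes Sod1 rose by 0.34 in WT and 0.25 in LKO mice.

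By likeness of pattern over the 24 means of group and ZT of log2 CPM, among 11085 genes, Nfe2l2 was nearest to Nod1 (Pearson r = 0.902), Shroom3 (0.856) and Rffl (0.852). Gclc was nearest to Rfx5 (0.914), Ngfr (0.902) and Rap2c (0.897), and Nqo1 to Zfp874a (0.788), Psma3 (0.745) and Commd8 (0.731). None of these 9 genes is among the 10 described here. The 24 means share libraries, scaling and time of day, and the correlations are descriptions.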

How the data were processed

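Liver RNA of 72 mice was sequenced. The deposited values are counts per gene, which the authors made with STAR 2.6.1b and featureCounts 2.0.0 on mm10 with Ensembl 97 annotation, without use of the strand. All value columns were mapped to samples by name (0 left unused). Genes passed filterByExpr and were tested with edgeR 4.0.16 (R 4.3.3), TMM scaling and the quasi-likelihood test, each pair of groups on its 36 libraries, the difference of genotype effects on 72, rhythms on 18 and single ZT on 12, with Benjamini-Hochberg adjustment over all genes. DESeq2 1.42.0 and limma 3.58.1 were alternatives. The test of a difference of rhythm and the scaling by total counts were added after the data were seen. The members and lists were chosen with earlier results of these data known. Besides the 10 genes, a listed gene was named if called in 3 or more of the 4 comparisons or among the 3 largest called genotype changes of its list, and for Nfe2l2, Nqo1 and Gclc the 3 genes with the highest Pearson r. For likeness, genes averaging log2 CPM 1 or more entered, with a pseudocount of 0.5. Scripts were tested on simulated data.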

Additional observations from a re-analysis of the deposited data

Results flagged for a closer look

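The genotype effect differed between GF and SPF mice by a test of the difference for Gpx6 (-2.341 on the log2 scale) and for Me1 (-1.296). The 24 h rhythm differed between GF LKO and GF WT for Gss (adjusted p = 0.0061, edgeR) and for Gclc (adjusted p = 0.002589, edgeR). These rhythm tests were added after the rhythms had been seen.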

How the results depend on the processing

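The 10 genes in 5 comparisons gave 1000 values under alternatives, of which 60 turned in sign, 0 of them among the 16 called results, and 6 of the 16 kept their call throughout. The cause of the changes was not tested. Shares of all genes called under the alternatives are not given, so the counts below have no background beside them. Genes called between SPF LKO and SPF WT were 1 without ZT2 and 1 without ZT22, between GF WT and SPF WT 8 with total counts alone, and between GF LKO and SPF LKO 3 with no filter on low counts, 3 without ZT2, 3 without ZT6 and 3 without ZT18. Pathway genes called were 11 between SPF LKO and SPF WT with no filter and 2 for the difference of genotype effects without ZT14. Rhythmic genes in SPF LKO were 2 with no filter, 1 with ZT as a factor and 2 without the 4 libraries against their labels. Gene and ZT pairs called were 5 with DESeq2 and 6 with no filter between SPF LKO and SPF WT, 10 with no filter and 9 without the 4 libraries between GF WT and SPF WT, and 5 with DESeq2, 7 with no filter and 2 with 6 libraries in each fit between GF LKO and SPF LKO. A difference of rhythm between GF LKO and SPF LKO was called for 1 gene with no filter.

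Replicate numbers did not pair the samples, since 5, 3, 5 and 3 of 18 same-numbered pairs had deviations correlated above 0.1. With the replicate block, 2, 4, 6, 6 and 1 genes were called in the 5 comparisons, 2 were rhythmic in SPF LKO, 3 gene and ZT pairs were called between GF WT and SPF WT, and Gsr between GF LKO and SPF LKO was 0.000385.

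With replicates left out, counts ran as follows. They were genes called (SPF LKO/SPF WT) 1 to 2, pathway genes called (SPF LKO/SPF WT) 9 to 23, genes called (GF WT/SPF WT) 1 to 4, pathway genes called (GF WT/SPF WT) 14 to 26, genes called (GF LKO/SPF LKO) 1 to 5, pathway genes called (GF LKO/SPF LKO) 18 to 34, pathway genes called (difference of genotype effects) 0 to 1, genes called rhythmic (SPF WT) 1 to 2. They were also genes called rhythmic (SPF LKO) 0 to 1, genes called rhythmic (GF WT) 3 to 6, genes called rhythmic (GF LKO) 3 to 4, gene and ZT pairs called (SPF LKO/SPF WT) 1 to 3, gene and ZT pairs called (GF LKO/GF WT) 4 to 5, genes called for a difference of rhythm (GF LKO/GF WT) 1 to 3, gene and ZT pairs called (GF WT/SPF WT) 1 to 3, gene and ZT pairs called (GF LKO/SPF LKO) 0 in each. Log2 changes ran, for Nfe2l2 (SPF LKO/SPF WT) -0.0673 to 0.0502, Gsr (SPF LKO/SPF WT) -0.034 to 0.00972, Nfe2l2 (GF LKO/GF WT) -0.0254 to 0.0619, Gclc (GF LKO/GF WT) -0.145 to 0.021, Gsr (GF LKO/GF WT) -0.00391 to 0.0924, Nqo1 (GF LKO/GF WT) -0.175 to 0.0164, Txnrd1 (GF LKO/GF WT) -0.0975 to 0.0113, Nqo1 (GF WT/SPF WT) -0.322 to 0.113, Gss (GF LKO/SPF LKO) -0.0458 to 0.0404, Gsr (GF LKO/SPF LKO) -0.0136 to 0.0222, Gpx6 (GF LKO/SPF LKO) -0.0742 to 0.244, Nqo1 (GF LKO/SPF LKO) -0.119 to 0.307, Nqo1 (difference of genotype effects) -0.0549 to 0.364, Txnrd1 (difference of genotype effects) -0.0704 to 0.0463.

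Log2 changes near 0 turned in sign as follows by alternative. With total counts alone, Nfe2l2 0.0976 (SPF LKO/SPF WT), Gclm 0.0327 (SPF LKO/SPF WT), Gss 0.00199 (SPF LKO/SPF WT), Gsr 0.0905 (SPF LKO/SPF WT), Txnrd1 0.07 (SPF LKO/SPF WT), Gclc 0.126 (GF LKO/GF WT), Nqo1 0.0681 (GF LKO/GF WT), Txnrd1 0.147 (GF LKO/GF WT), Gpx6 -0.0114 (GF LKO/SPF LKO), Nqo1 -0.0287 (GF LKO/SPF LKO), Gpx1 0.00388 (difference of genotype effects). Without ZT6, Nfe2l2 0.000765 (SPF LKO/SPF WT), Gsr 0.0218 (SPF LKO/SPF WT), Txnrd1 0.0151 (SPF LKO/SPF WT), Gss 0.00796 (GF LKO/SPF LKO), Nqo1 -0.0448 (GF LKO/SPF LKO), Txnrd1 -0.0411 (difference of genotype effects). Without ZT10, Nfe2l2 0.0313 (SPF LKO/SPF WT), Gsr 0.0267 (GF LKO/SPF LKO). Without ZT14, Nfe2l2 0.0082 (SPF LKO/SPF WT), Gpx6 -0.000769 (GF LKO/SPF LKO), Gpx1 0.00175 (difference of genotype effects). Without ZT22, Gsr 0.00203 (SPF LKO/SPF WT), Gclc 0.0322 (GF LKO/GF WT), Gss 0.00656 (GF LKO/SPF LKO). Without ZT2, Nfe2l2 -0.0199 (GF LKO/GF WT), Nqo1 -0.00667 (GF LKO/SPF LKO), Txnrd1 -0.00171 (difference of genotype effects). Without ZT18, Gclc 0.0176 (GF LKO/GF WT), Gss -0.00826 (GF LKO/GF WT), Txnrd1 0.00452 (GF LKO/GF WT). With DESeq2, Gss 0.00431 (GF LKO/SPF LKO), Gsr 0.00773 (GF LKO/SPF LKO). With RLE scaling, Gss 0.000238 (GF LKO/SPF LKO), Gsr 0.00404 (GF LKO/SPF LKO). Without the 4 libraries against their labels, Gss 0.0203 (GF LKO/SPF LKO), Gpx1 0.0066 (difference of genotype effects). With limma-voom, Gsr 0.00034 (GF LKO/SPF LKO). With no filter on low counts, Gsr 0.000962 (GF LKO/SPF LKO), Txnrd1 -0.00541 (difference of genotype effects). With replicate block (ZT and replicate number), Gsr 0.000385 (GF LKO/SPF LKO). With all 72 libraries in the fit, Gsr 0.00185 (GF LKO/SPF LKO).

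Low counts limit Gpx6, and 3 mice per group and ZT limit the calls at single times.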
